A study of Bos taurus with 6 samples.

Results

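The cytosolic ribosomal protein genes encode the protein part of the ribosome that translates nuclear messenger RNA. They were taken from the deposited gene count table as the protein-coding rows with the symbol of a large-subunit (RPL, RPLP) or small-subunit (RPS, RPSA) protein and at least 60 counts over the 6 libraries. Where a symbol stood on several rows, the row with the most counts was kept. This gave 72 genes of 28200 rows, 40 of the large and 32 of the small subunit. The name pattern covered 85 rows with 74 symbols. RPL10L had 0 counts in all 6 libraries, and RPL3L, with 58 counts in all, fell just outside the minimum. The member nearest to it on the inside, RPS27L, had 7209 counts.

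The KLF6 knockout libraries came from mammary epithelial cells of Holstein cattle, obtained as primary cells by enzyme digestion of gland tissue, in which the transcription factor gene KLF6 had been knocked out with CRISPR/Cas9. The same kind of cells without the knockout, called wild type by the submitters, were the comparison. Each genotype had 3 libraries of total RNA, and the labels name no treatment or time point for either. Nothing in the labels tells if separate cultures gave the libraries, if the knockout cells were 1 clone or a pool, or if both genotypes came from the same animal. The p-values thus reflect the spread among the 3 libraries of a genotype, and that spread may be purely technical.

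A ribosome takes up its proteins in nearly equal numbers, and cells keep the messages for them abundant and at related levels. Many of these messages carry a TOP sequence, a run of pyrimidines at the very start of the RNA, through which the kinase mTOR and the RNA-binding protein LARP1 control how much of the message is translated. The genes themselves lie scattered over many chromosomes. In the lactating gland, ribosome supply is one of the needs of milk protein synthesis.

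As a group, the ribosomal protein messages moved little, in both directions. All 72 passed the filter on low counts. At an edgeR adjusted p under 0.05, 19 were higher and 25 were lower in KLF6 knockout libraries than in wild type, and 28 were not called. Members called in either direction made up 61.1%, against 74.6% of all 13390 tested genes. The higher share was 26.4%, against 37.1% of all tested genes, and the lower share was 34.7%, against 37.6%. Among the 1971 tested genes with a mean of at least 100 CPM (a gene's reads for every 1e+06 reads of the library after TMM scaling), which are nearer to the members in level, 85.9% were called, 49.9% higher and 36.0% lower, with a median log2 fold change of 0.12. The median, which is given as knockout over wild type throughout, was -0.03 over the members and -0.01 over all tested genes.

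The sizes of change were small beside those of other genes. The median absolute log2 fold change was 0.18 over the members and 0.50 over all tested genes, and 46 members (63.9%) stayed within 1.2-fold, against 28.1% of all tested genes. Of the genes of at least 100 CPM, 32.3% stayed within 1.2-fold. No member was called higher by 1.5-fold or more, and 6 were called lower by at least that much. These were RPL7, RPL8, RPL30, RPS20, RPS4X and RPL5. Over all tested genes, 20.1% were called higher and 21.5% lower at that size.

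**Figure D1:**
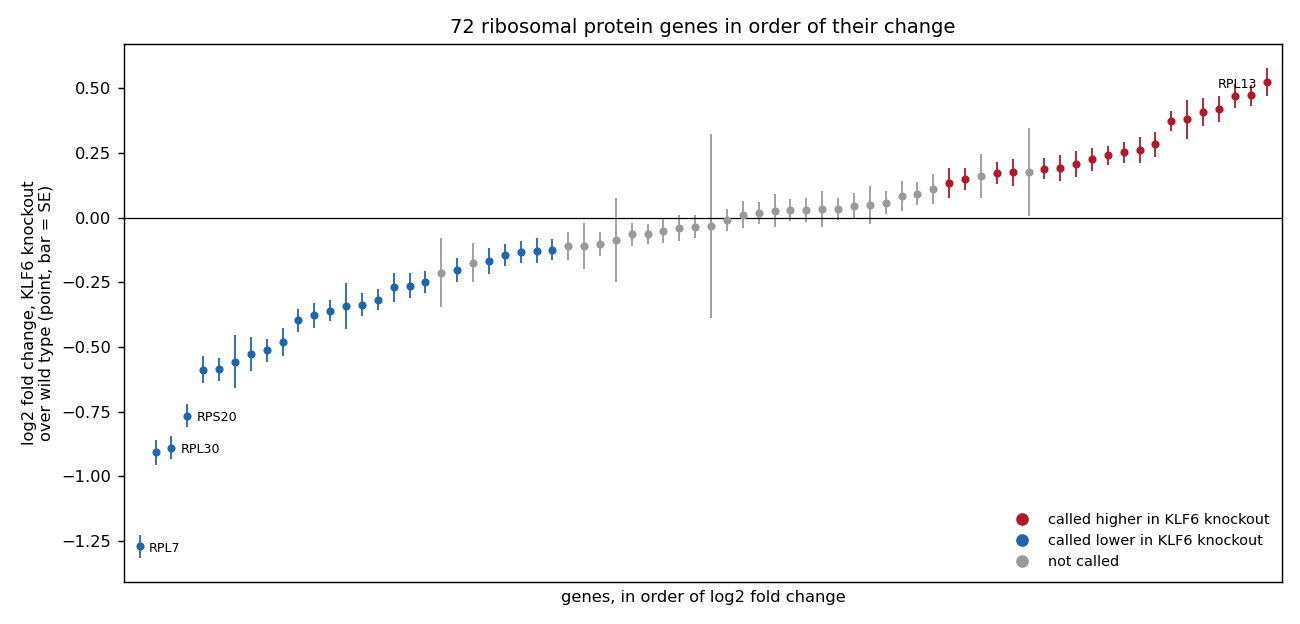
Log2 fold change (knockout over wild type) of each of the 72 ribosomal protein genes, in order of size, with bars for the standard error and colours for the edgeR call. The 4 chromosome 14 genes lie at the low end, from -1.27 to -0.76, and no gene reaches 0.6 on the high side.

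The libraries held 17512892 to 18724879 counts, and the depth did not separate the genotypes. KLF6 itself (ENSBTAG00000015188, chromosome 13, 44597240 to 44605699) averaged 224 ± 6.48 CPM in the knockout, against 519 ± 34.0 CPM in wild-type libraries (SD, n = 3 each), so its message was lower but still present in the knockout libraries. The third wild-type library stood apart. Its chi-square per gene against the other wild-type libraries was 9.19 and 9.17, while the remaining same-genotype pairs had values of 2.28 to 2.80. Marker sums are in CPM of the library totals, without TMM scaling. The 12 listed mammary epithelial markers summed to 6390 to 6590 CPM in the knockout, against 16300 to 17600 CPM in wild-type libraries, with the milk protein genes LALBA and CSN2 at 0 in all libraries. Among the 9 of these 12 that were tested, 6 were lower, 1 was higher and 2 were not called (median log2 fold change -1.21). Over all tested genes 37.6% were lower and 37.1% higher. EPCAM, a surface protein of epithelial cells, averaged 167 CPM in the knockout, against 165 CPM in wild-type libraries, after TMM scaling, and does not stand for the list. The 9 fibroblast markers summed to 241 to 253 CPM in the knockout, against 1080 to 1270 CPM in wild-type libraries. For the 5 endothelial markers the sums were 30.2 to 32.0 CPM in the knockout, against 4.58 to 5.91 CPM in wild type. Only 3 endothelial markers were tested, 1 higher and 2 lower (median log2 fold change -2.31), with KDR at 0 in all libraries. The higher endothelial sum thus does not describe most of its genes. The 6 leukocyte markers summed to 4.79 to 5.71 CPM in the knockout, against 7.58 to 9.54 CPM in wild-type libraries, with PTPRC at 0. The 4 adipocyte markers summed to 1.86 to 4.17 CPM in the knockout, against 1.77 to 2.40 CPM in wild-type libraries, with ADIPOQ at 0. The part of these marker levels in the ribosomal protein values was not tested, and in bulk RNA fewer cells of a type and less RNA per cell cannot be told apart.

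Together the members took a smaller share of the library in the knockout. They held 7.65%, 7.58% and 7.59% of all counts in the knockout libraries, against 8.42%, 8.15% and 8.16% in the wild-type libraries. The 3 knockout values all lay below the wild-type values, and the ratio of the means was 0.922. The exact two-sided permutation p was 0.1, the smallest that 3 libraries against 3 can give, so it could not fall under 0.05 at any separation. The members were also chosen with earlier results known, and nothing is drawn from this p. Without the 4 genes on chromosome 14 the share was 7.30 ± 0.04% in knockout and 7.62 ± 0.15% in wild-type libraries (SD, n = 3 each), a ratio of 0.957. The large-subunit genes held 4.30% of the counts in knockout and 4.71% in wild-type libraries, and the small-subunit genes 3.30% in knockout and 3.54% in wild-type libraries. These are shares of the reads and do not measure the amount of message per cell. They use the library totals without TMM scaling. The TMM factors were 0.982 to 0.984 in knockout and 1.012 to 1.022 in wild-type libraries. With that scaling, used for the CPM values of the members, the difference between the genotypes is smaller than these shares give.

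The 4 largest falls were the 4 members that the files place on chromosome 14. RPL7 (ENSBTAG00000020139, chromosome 14, 36623520 to 36627029), an RNA-binding protein of the large subunit, had 740.3, 767 and 713 CPM in knockout libraries, against 1825, 1825 and 1706 CPM in wild-type libraries. Its log2 fold change was -1.27 ± 0.04 (SE; edgeR adjusted p = 1.81e-14), the only change in the set of at least 2-fold. RPL8 (chromosome 14, 321231 to 324177), which lies close to the peptidyl transferase centre, had 1139, 1158 and 1214 CPM in knockout libraries, against 2336, 2176 and 2074 CPM in wild-type libraries. Every knockout value of both genes was below every wild-type value by a wide margin. RPL30 (chromosome 14, 66175850 to 66194695) had 359, 356 and 349 CPM in knockout libraries, against 630, 650.1 and 690 CPM in wild-type libraries. RPS20 (chromosome 14, 23278316 to 23279689), a protein of the head of the small subunit, had 860, 865 and 867 CPM in knockout libraries, against 1426, 1423 and 1554 CPM in wild-type libraries. The log2 fold changes were -0.91 ± 0.05 for RPL8, -0.89 ± 0.04 for RPL30 and -0.76 ± 0.04 for RPS20. The 4 genes stand far apart on the chromosome, and in each the genotypes did not overlap. Their summed share of the counts was 0.304%, 0.309% and 0.309% in knockout libraries, against 0.629%, 0.618% and 0.615% in wild-type libraries.

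**Figure D2:**
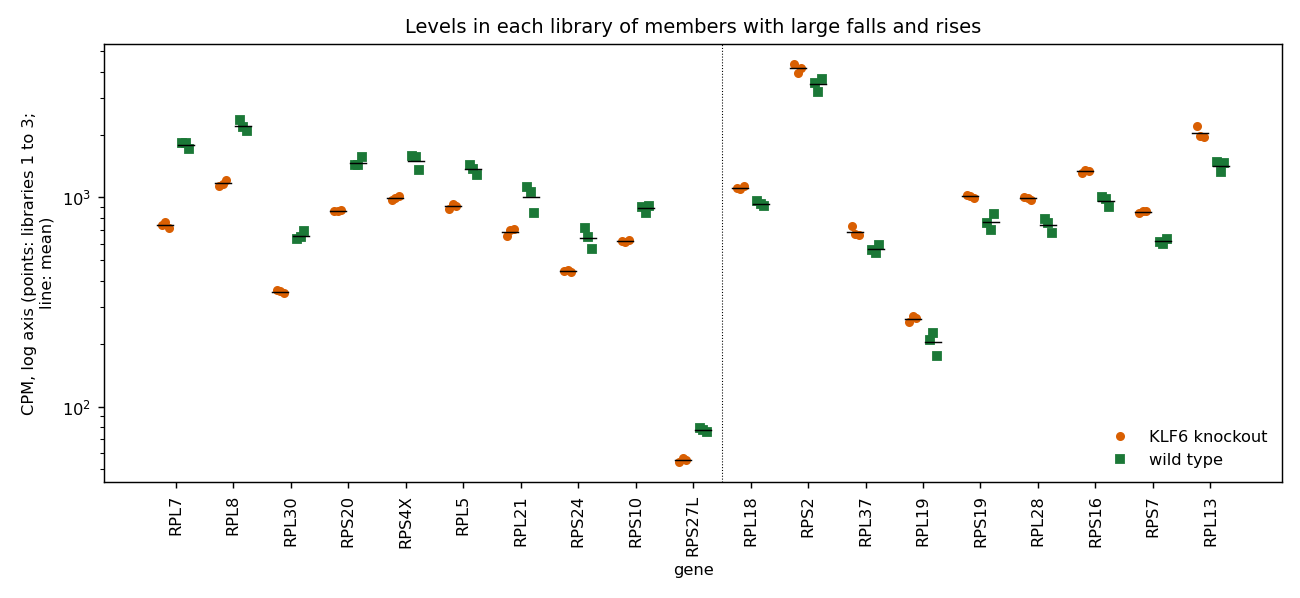
CPM in each of the 6 libraries for named ribosomal protein genes, knockout libraries left of wild type, with a line at each mean. The knockout points of RPL7, RPL8, RPL30 and RPS20 lie below all wild-type points, and those of RPL13, RPS7 and RPS16 lie above them.

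The next falls came from other chromosomes. RPS4X, the X-linked small-subunit protein, had 971, 999 and 1018 CPM in knockout libraries, against 1577, 1563 and 1352 CPM in wild-type libraries (log2 fold change -0.59 ± 0.05, edgeR adjusted p = 1.95e-08). RPL5 on chromosome 3 had 883, 930 and 907 CPM in knockout libraries, against 1425, 1369 and 1287 CPM in wild-type libraries (-0.59 ± 0.04, adjusted p = 1.26e-09). RPL5 and RPL11 join the 5S ribosomal RNA in a particle that can also bind MDM2, the inhibitor of p53. The partner RPL11 was not called: it had 1049, 963 and 947 CPM in knockout libraries, against 1059, 1018 and 1264 CPM in wild-type libraries (-0.18 ± 0.08, adjusted p = 0.0559), and the groups overlapped. Its call turned on single libraries and on the processing. It was called lower without the first knockout library (-0.22) or without the second wild-type library (-0.23). Without the third wild-type library it was -0.07 (adjusted p = 0.0805). With all libraries kept, it was also called lower under some other choices of scaling, filter or test, such as scaling by library totals alone (-0.23). RPL21 on chromosome 12, with 651, 695 and 706 CPM in knockout libraries and 1118, 1057 and 844 CPM in wild-type libraries, had a log2 fold change of -0.56 ± 0.10. RPS24 on chromosome 28, which is mutated in some families with Diamond-Blackfan anaemia, averaged 444 ± 6.04 CPM in the knockout, against 640.2 ± 73.0 CPM in wild-type libraries (-0.53 ± 0.06). In both genes the knockout values were close together and below all wild-type values, of which the third was the lowest. RPS10 on chromosome 23, another gene of that anaemia in humans, averaged 621 ± 6.76 CPM in the knockout, against 886 ± 36.7 CPM in wild-type libraries (-0.51 ± 0.04).

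The largest rise was that of RPL13 (chromosome 18, 14490263 to 14492655), a large-subunit protein. It had 2203, 1969 and 1942 CPM in knockout libraries, against 1477, 1318 and 1462 CPM in wild-type libraries, with a log2 fold change of 0.52 ± 0.05 (edgeR adjusted p = 1.48e-07). RPS7 on chromosome 8, a small-subunit protein that also binds MDM2, had 842, 863 and 857 CPM in knockout libraries, against 613, 598 and 635 CPM in wild-type libraries (0.47 ± 0.04). RPS16, on chromosome 18, had 1303, 1353 and 1345 CPM in knockout libraries, against 1008, 980 and 900.01 CPM in wild-type libraries (0.47 ± 0.05). In each of these 3 genes the genotypes did not overlap. RPS19, the gene most often mutated in Diamond-Blackfan anaemia, averaged 1011 ± 16.6 CPM in the knockout, against 762 ± 70.2 CPM in wild-type libraries (0.41 ± 0.05, adjusted p = 3.19e-06). RPL28 on chromosome 18 averaged 989 ± 13.2 CPM in the knockout, against 740.1 ± 58.3 CPM in wild-type libraries (0.42 ± 0.05). RPL13A on chromosome 18, which in human monocytes leaves the ribosome to silence inflammatory messages, averaged 2281 ± 23.2 CPM in the knockout, against 1932 ± 29.8 CPM in wild-type libraries (0.24 ± 0.04). RPL19 on chromosome 19 rose by 0.38 ± 0.08, RPL37 on chromosome 20 by 0.28 ± 0.05, RPS2 on chromosome 25 by 0.26 ± 0.05 and RPL18 on chromosome 18 by 0.25 ± 0.04.

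Over all members the knockout libraries lay entirely above wild type in 19 genes and entirely below it in 25, while 28 overlapped. Over all tested genes, 37.9% lay entirely above and 38.3% entirely below, so that 76.2% did not overlap. These groups of members are not the same as the called ones. For example, RPL7A did not overlap and was not called, and RPS3A and RPL29 were called and overlapped. These 3 genes were named after their values were seen.

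The members with the most reads split by protein. RPLP0 (chromosome 17), the base of the stalk that recruits elongation factors, was the most counted member. It had 4515, 4633 and 4686 CPM in knockout libraries, against 4232, 4037 and 3868 CPM in wild-type libraries (log2 fold change 0.19 ± 0.04, edgeR adjusted p = 0.000437). The acidic stalk protein RPLP1, with 3450.4 ± 37.6 CPM in the knockout, against 3057 ± 262 CPM in wild-type libraries, also rose (0.17 ± 0.05), by less without the third wild-type library (0.11). The third stalk gene, RPLP2, named here to complete the stalk, fell (-0.15 ± 0.04), with 1147 ± 2.16 CPM in the knockout, against 1269 ± 60.2 CPM in wild-type libraries. RPS2, at the mRNA entry side of the small subunit, averaged 4159 ± 200.1 CPM in the knockout, against 3472 ± 247 CPM in wild-type libraries. RPL4, which lines the exit tunnel, fell to 3028, 3071 and 3028 CPM in knockout libraries, against 3914, 3840 and 3619 CPM in wild-type libraries (-0.32 ± 0.04). RPSA, which is also known as a laminin receptor, had 3044, 3110.3 and 3205 CPM in knockout libraries, against 3544, 3409 and 3091 CPM in wild-type libraries, and was not called (-0.10 ± 0.05, adjusted p = 0.0585), but without the third wild-type library it was (-0.15, adjusted p = 6.58e-05).

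Other members named for roles outside the ribosome had smaller differences than RPL5 and RPS7. RPS6, the substrate of the S6 kinases downstream of mTOR, averaged 871 ± 1.69 CPM in the knockout, against 955 ± 43.8 CPM in wild-type libraries (log2 fold change -0.13 ± 0.04, edgeR adjusted p = 0.00928), and without the first wild-type library it was not called (-0.09, adjusted p = 0.0642). RPS3, which also takes part in DNA repair and NF-kB signalling, had 1142, 1120.0 and 1157 CPM in knockout libraries, against 1290, 1237 and 1404 CPM in wild-type libraries (-0.20 ± 0.05). RPS27A, which is made as a fusion with ubiquitin, averaged 1023 ± 17.9 CPM in the knockout, against 1015 ± 83.4 CPM in wild-type libraries and was not called (0.01 ± 0.05, adjusted p = 0.86). Its difference changed sign when libraries were scaled by their totals alone (-0.039) and without the third wild-type library (-0.055).

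Per kilobase of the row's length in the file, the levels of the members spanned a wide range. RPLP1 was the highest, at 6687 ± 72.9 CPM per kb in the knockout, against 5925 ± 507 CPM per kb in wild-type libraries, and RPLP0 averaged 4143 CPM per kb in the knockout, against 3635 CPM per kb in wild type. RPS27L was the lowest, at 126 ± 3.12 CPM per kb in the knockout, against 175 ± 4.54 CPM per kb in wild-type libraries. RPL30 had 203 CPM per kb in the knockout, against 376 CPM per kb in wild-type libraries, and RPL19 had 277 CPM per kb in the knockout, against 213 CPM per kb in wild type. These lengths come from the file and take in exons that these cells may not use, so the order is only approximate. Row length and log2 fold change were hardly related across the 72 genes (Pearson r = -0.15, a description across genes).

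By chromosome, the members followed the other genes around them in part. The 72 genes lie on 26 chromosomes. For each chromosome the median log2 fold change of all other tested genes was taken, and across the 72 members it was related to the member's own value with Pearson r = 0.73 and Spearman rho = 0.58. This is a description across genes that share the same 6 libraries. Without the 13 members on chromosomes 14 and 18, r was 0.42 and rho 0.35 over 59 members. With the tested genes within 5 Mb of each member in place of the chromosome, r was 0.71 and rho 0.60. Subtracting the chromosome median lowered the SD of the members' log2 fold changes to 0.24, against 0.34 before.

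Chromosome 14 was the clearest case. Its 297 other tested genes had a median log2 fold change of -0.82, close to the -0.90 of its 4 members, and 79.8% of them were called lower and 7.74% higher. Set against that median, the log2 fold change of RPL7 was -0.45, that of RPL8 -0.09, that of RPL30 -0.07 and that of RPS20 0.05. On chromosome 18, 7 of 9 members were higher, with a member median of 0.37, and the median of the 762 other tested genes was 0.32, with 54.1% called higher and 21.3% lower. RPS9 there, named after its values were seen, fell (-0.12 ± 0.04). On chromosome 3, RPL5 and RPS27 fell, by 0.59 and 0.34, where the other genes had a median of -0.39. The files hold RNA counts only, so a change in the number of copies of a chromosome and a change in transcription from it cannot be told apart.

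Other chromosomes went differently. On chromosome 19 all 5 members (RPL23, RPL26, RPL27, RPL38 and RPL19) lay above the median of the 808 other tested genes, which was -0.27. RPL27, RPL38 and RPL19 were called higher, where 28.0% of the other genes were higher and 50.7% lower. Of the 3 members on chromosome 23, RPS10 and RPL10A fell, by 0.51 and 0.36, while the other genes there had a median of 0.11. On the X chromosome RPS4X and RPL10 fell, by 0.59 and 0.34, and RPL39 rose (0.23 ± 0.05), where the other genes had a median of 0.00. None of the 6 members on chromosome 7 was called. Over all 72 members, 30 lay above their chromosome's median and 42 below it. Of the 19 members called higher, 15 were also above it, and of the 25 called lower, 21 were also below it. The calls rest on the same log2 fold changes, so most called members fall on that side by selection, and nothing is drawn from these counts.

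**Figure D3:**
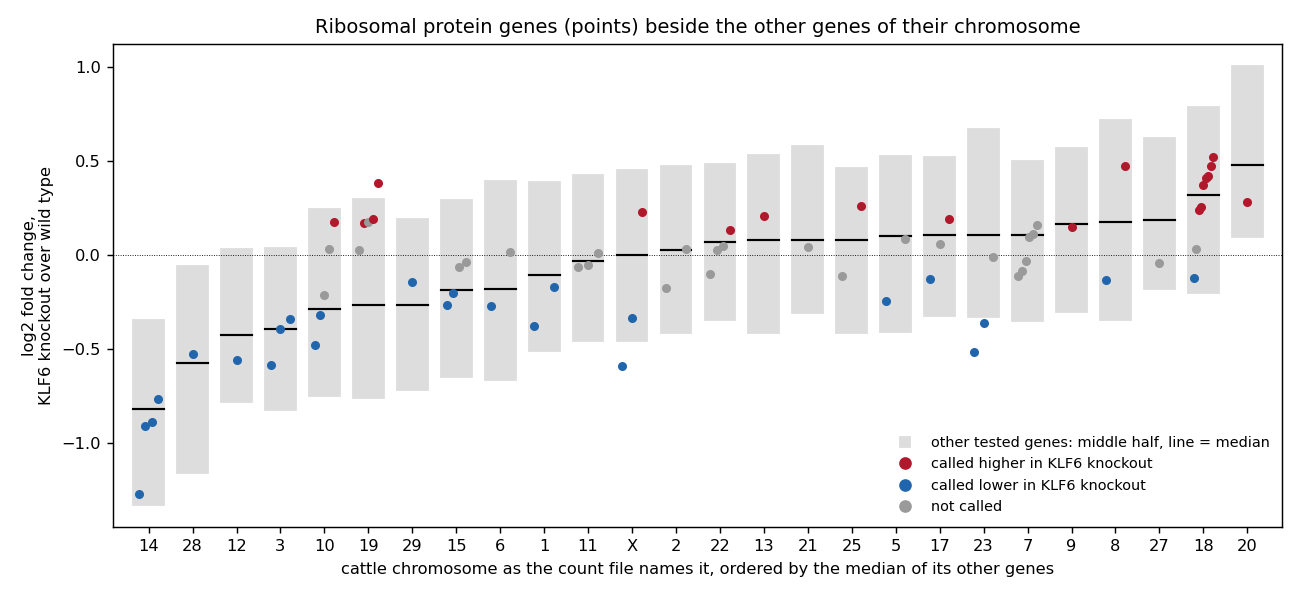
Log2 fold change (knockout over wild type) of the ribosomal protein genes by chromosome (coloured points), beside the median and quartiles of the other tested genes of that chromosome (black mark and grey bar). On chromosome 14 both are low, at -0.90 and -0.82, and on chromosome 19 the 5 ribosomal protein genes lie above the median of -0.27.

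The spread between libraries differed by genotype. The median SD of a member was 2.13% of its mean in knockout and 6.06% in wild-type libraries. In 18 members the third wild-type library differed by more than 15% from the mean of the first and second, with 8 above and 10 below, and 11 of these 18 were not called. The extremes were RPS28 and RPL26, named after their values were seen. RPS28 had 435, 363 and 302 CPM in knockout libraries, against 320.4, 257 and 548 CPM in wild-type libraries, so the third library was 90.0% above the other two. RPL26 had 496, 513 and 532 CPM in knockout libraries, against 503, 514 and 348 CPM in wild-type libraries, 31.4% below. Without that library 21 members were higher and 27 lower. RPS15A and RPSA were then called lower, RPS23 and RPS26 were among those called higher, and RPL29 was no longer called. RPS23 had a log2 fold change of -0.09 (adjusted p = 0.662) with all libraries and 0.10 (adjusted p = 0.00958) without that one.

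**Figure D4:**
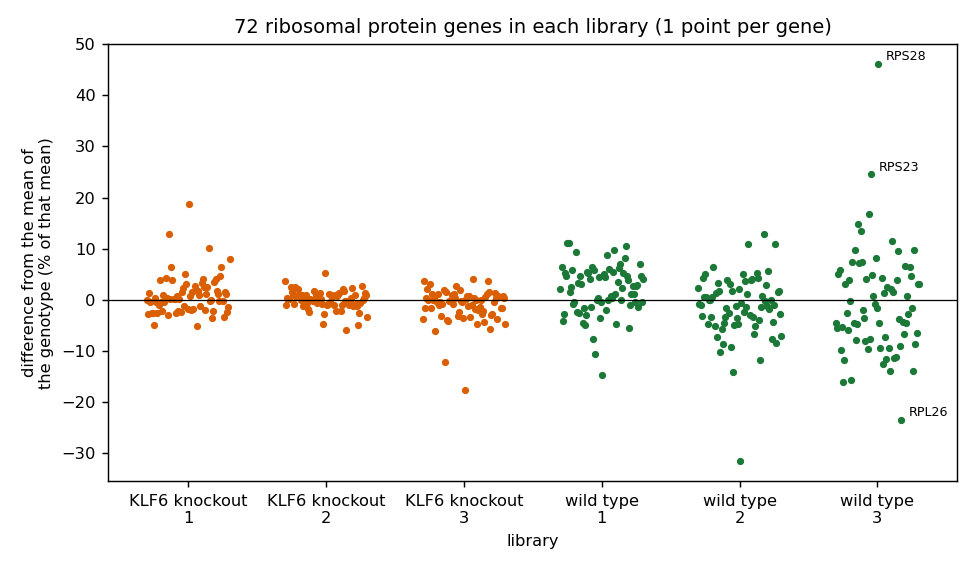
Deviation of each ribosomal protein gene in each library from the mean of its genotype, in percent, with knockout libraries left of wild type. The third wild-type library has the widest spread, and the 3 knockout libraries are narrow.

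Some members have close relatives, and not all of these moved with their partner. RPS27L, induced by p53 and related to RPS27, had 54.1, 56.8 and 55.4 CPM in knockout libraries, against 79.4, 77.3 and 75.3 CPM in wild-type libraries (log2 fold change -0.48 ± 0.05, edgeR adjusted p = 2.21e-07). RPS27 also fell (-0.34 ± 0.09), and RPS27L was 8.38 ± 0.11% of it in knockout and 9.34 ± 1.15% in wild-type libraries. RPL26L1, a copy of RPL26 that the name rule does not take, rose to 87.8, 88.3 and 84.9 CPM in knockout libraries, against 37.0, 35.6 and 38.1 CPM in wild-type libraries (1.24 ± 0.06). It was 17.7%, 17.2% and 15.9% of RPL26 in knockout libraries, against 7.36%, 6.93% and 10.9% in wild-type libraries. The share did not overlap between genotypes. RPL7L1, which acts in assembly of the large subunit, rose (0.34) while RPL7 fell, and was 24.4 ± 0.78% of RPL7 in knockout and 7.99 ± 0.31% in wild-type libraries. The row named RPS4Y1, which the file places on chromosome 23, also rose (0.26). Of the 8 listed genes of ribosomal proteins outside the rule, 5 were higher and 0 lower, where 37.1% of all tested genes were higher and 37.6% lower. RPL36AL rose (0.28), and FAU, RACK1 and RPL22L1 were not called.

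Some ribosomal proteins are in the files only as rows without a symbol, known from the file's description. Of 10 such rows, 0 were higher, 6 were lower and 4 were not called. Over all tested genes, 37.1% were higher and 37.6% lower. The row of ribosomal protein L23a on chromosome 19 (ENSBTAG00000046394) fell, with 622 ± 36.7 CPM in the knockout, against 904 ± 78.9 CPM in wild-type libraries (log2 fold change -0.54 ± 0.06). It stands on the chromosome where the 5 named members were all above the median. The row of L17 on chromosome 24 (-0.12 ± 0.08) and the row of L22 on chromosome 16 (0.03 ± 0.04) were not called. The other lower rows were those of an L36a-like protein on chromosome 10 (-0.37 ± 0.10), of S25 on chromosome 3 (-0.40 ± 0.06), of a second L23a on the X chromosome (-0.31 ± 0.06), and of an L21-like and an S27-like protein, both at low levels. Rows of this kind can be copies that share reads with a member.

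Ribosomal protein genes have many processed copies in mammalian genomes, and their reads can be split between copies. Further rows, 11 in all, stood under 6 of the symbols, with 36506 counts beside 8593619 for the members. RPL12 was the main case. Its kept row, on chromosome 10, has a length equal to its span in the file and thus no intron there, and it averaged 625 ± 28.8 CPM in the knockout, against 611 ± 68.8 CPM in wild-type libraries. The second RPL12 row, on chromosome 11, spans introns and averaged 271 ± 19.6 CPM in the knockout, against 273 ± 18.3 CPM in wild-type libraries, with 30.5% of the reads of both. Neither was called, so RPL12 has no change to place, but its chromosome is uncertain. The member rows overlap 5 other protein-coding rows, all on the opposite strand, and no source used here gives the strand setting of the counting.

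The introns of ribosomal protein genes house many small nucleolar RNAs, which guide modification of ribosomal RNA. The file has 53 such rows inside 25 members on the same strand, 7 of them at 0 in all libraries. Of 30 that passed the filter, 3 were higher and 3 lower, against 37.1% higher and 37.6% lower over all tested genes. Their median log2 fold change was 0.12. The clearest was a small nucleolar RNA of family RF01151 inside RPL3, named after its values were seen. It had 93, 99 and 70 counts in knockout libraries, against 39, 48 and 41 counts in wild-type libraries (1.06 ± 0.19, edgeR adjusted p = 6.5e-05), while its host RPL3 fell (-0.25 ± 0.04). Inside RPS20, the family RF01277 row fell together with its host, with 21, 22 and 10 counts in knockout libraries, against 35, 22 and 53 counts in wild-type libraries, and these overlapped. The low counts limit what can be seen for most of these rows.

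The genes that build ribosomes were read against the 37.1% of all tested genes that were called higher, and the 49.9% among tested genes of at least 100 CPM. The processome list covers the small subunit processome, which makes the first cut of the ribosomal RNA precursor. It also takes in proteins of small nucleolar RNA particles and later factors of small-subunit assembly. Of its 41 genes, 34 (82.9%) were higher, 3 lower and 4 not called, with a median log2 fold change of 0.70. NOP56, a core protein of box C/D particles, averaged 392 ± 3.08 CPM in the knockout, against 159.5 ± 5.31 CPM in wild-type libraries (1.30 ± 0.04), and FBL, their methyltransferase, rose by 1.13. UTP4 rose by 1.24 and UTP15 by 1.23, while UTP14A, HEATR1 and DDX52 fell by 0.70, 0.65 and 0.42. Of 44 genes of large-subunit assembly, 35 (79.5%) were higher and 7 lower, with a median of 0.46. NIP7 (1.15), PPAN (1.09) and BRIX1 (1.05) led the rises, and BOP1 (-0.64), RPF1 (-0.46) and RSL24D1 (-0.42) the falls. Of 16 chaperones and importers that carry single ribosomal proteins, 13 (81.2%) were higher and 2 lower, with a median of 0.49, led by PDCD2L (1.35), BCCIP (1.34) and GRWD1 (1.28), while IPO9 (-0.51) and IPO5 (-0.45) fell. Relative to the median of their chromosomes, the medians of these 3 lists were 0.64, 0.45 and 0.53. Within 1.2-fold were 12.2%, 22.7% and 6.25% of them, against 63.9% of the ribosomal proteins.

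Of 16 genes of RNA polymerase I and its factors, which transcribe ribosomal RNA, 10 (62.5%) were higher and 4 lower (median 0.39). CD3EAP, a polymerase I subunit, averaged 87.4 ± 4.37 CPM in the knockout, against 21.1 ± 2.68 CPM in wild-type libraries (2.05 ± 0.08). POLR1C and ZNRD1 rose by 1.01 and 0.92, and TTF1 (-0.39), POLR1A (-0.25) and UBTF (-0.22) fell.

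Other messages share the TOP sequence with ribosomal proteins. A list of elongation factors and other TOP messages was set by symbol. It also takes in EEF1E1, EEF2K and EEFSEC, and which of its messages carry a TOP sequence was not examined. Of its 17 tested genes, 7 (41.2%) were higher and 8 (47.1%) lower, near the shares of 37.1% and 37.6% over all tested genes (median 0.05). PABPC1, the poly(A)-binding protein on chromosome 14, averaged 559 ± 26.8 CPM in the knockout, against 1458 ± 148 CPM in wild-type libraries (-1.38 ± 0.06). TPT1 fell by 1.11 and EEF1D, also on chromosome 14, by 0.70, while the row named NPM1 (1.40), a low row on chromosome 16, NCL (0.94) and EEF1E1 (0.81) rose. Of 13 genes that control such messages, 6 (46.2%) were higher and 6 lower. EIF4EBP2 (-0.97), TIA1 (-0.79) and PABPC4 (-0.76) fell most, and EIF4EBP1 (0.67), TIAL1 (0.63) and CNBP (0.52) rose most. MTOR averaged 94.8 ± 3.11 CPM in the knockout, against 152 ± 10.9 CPM in wild-type libraries, and LARP1 averaged 269 ± 7.47 CPM in the knockout, against 224 ± 10.4 CPM in wild type (both genes were named for their role after their values were seen).

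Mitochondrial ribosomal proteins, which form a separate ribosome, had 35 of 76 tested genes (46.1%) higher and 22 (28.9%) lower (median 0.12), with MRPL33 (1.15), MRPS17 (1.04) and MRPL36 (0.97) at the top and MRPL47 (-1.01), MRPL13 (-0.93) and MRPL57 (-0.85) at the bottom. The list of initiation factors took every symbol that starts with EIF and a digit, so it also holds inhibitors of initiation such as EIF4EBP1 and EIF4EBP2. Of its 51 tested genes, 25 (49.0%) were higher and 17 (33.3%) lower (median 0.14). For both lists, the shares over all tested genes were 37.1% higher and 37.6% lower. EIF3E on chromosome 14 averaged 109 ± 3.36 CPM in the knockout, against 332 ± 22.2 CPM in wild-type libraries (-1.61 ± 0.05), and EIF4B fell by 0.90. EIF4E3, a relative of the cap-binding protein, had 84 reads in knockout and 2 in wild-type libraries, a ratio of 42.7 with a 95% counting interval of 11.5 to 359, and EIF3G (0.89) and EIF6 (0.83) rose. Some genes stand on more than 1 of these lists. Of the 10 listed genes on chromosome 14, 9 were lower and 1 was higher. This is near the shares of that chromosome, where 79.8% of the 297 tested genes other than the members were lower and 7.74% higher.

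**Figure D5:**
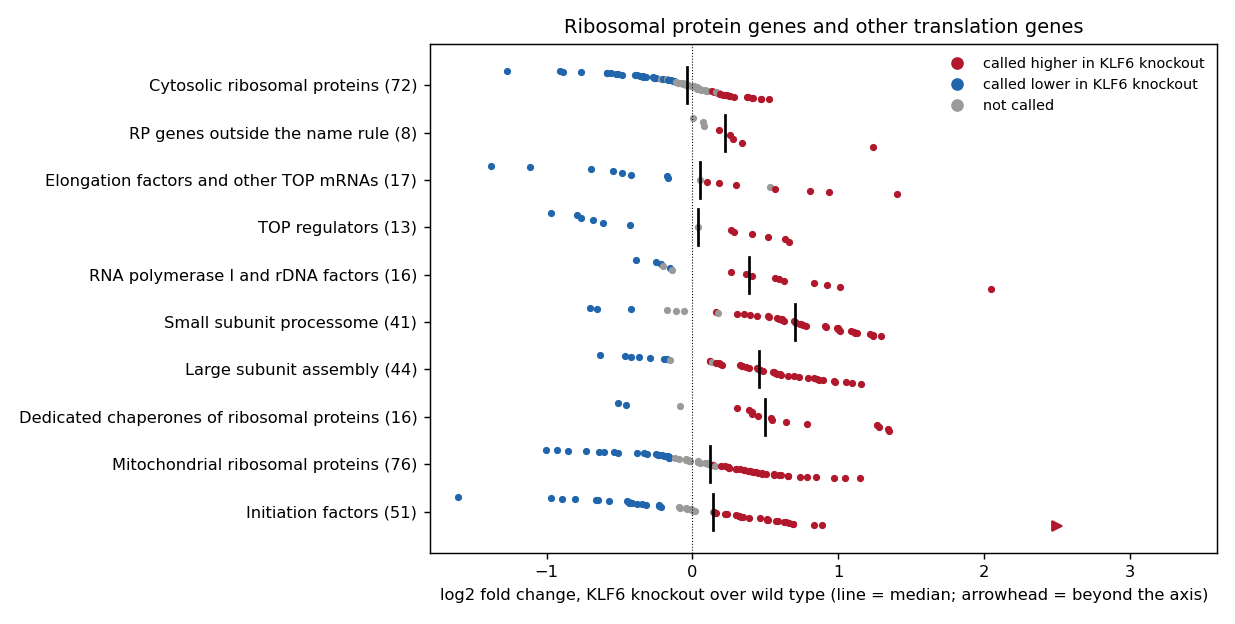
Log2 fold change (knockout over wild type) of each tested gene in 10 lists of translation genes, with the edgeR call in colour and a line at each list's median. The ribosomal proteins are centred at -0.03, the processome list at 0.70, and an arrowhead marks EIF4E3, which lies beyond the axis.

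The authors' deposited table lists 46 of the 72 members among its 9532 genes, 21 higher and 25 lower. Their log2 fold changes in the authors' deposited table differed from those given here by at most 0.014, and 43 were called here in the same direction. RPL11 and RPL36, for example, are in the authors' deposited table and were not called here.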

How the data were processed

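RNA from 3 KLF6 knockout and 3 wild-type libraries was measured by sequencing. The authors deposited whole-number counts per gene, with symbols, positions and biotypes, and the submitters' processing notes name featureCounts 1.5.0-p3 and HISAT2 2.0.5. Per the labels' protocols, library preparation used Ion Total RNA-Seq Kit v2. No source used here gives the genome build, annotation version or strand setting, so coordinates are those of the file. The authors deposited a second table with log2 fold changes and adjusted p-values of their own comparison, and with a normalized signal per library, which equals the counts divided by 1 factor per library and was not used.

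The counts were fitted over the whole table in R 4.3.3 by edgeR 4.0.16 (with limma 3.58.1), after filterByExpr (minimum count 10, minimum total 15), TMM scaling, robust quasi-likelihood and Benjamini-Hochberg adjustment at 0.05 over 13390 genes. The SE was worked back from the quasi-likelihood F. In data simulated on these libraries, 67, 67 and 66 of the 13390 genes were changed by 1.2-, 1.5- and 2-fold. Of these, 26.9%, 83.6% and 100% were recovered. Few genes were changed there, while 74.6% were called in the data, and every gene and library had the same dispersion. Abundant genes such as the members were not simulated apart. These shares check the code and do not give the power of the comparison. Counting intervals cover counting error only.

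The members and all gene lists were chosen with earlier results of these data known. Named members were the 10 largest called rises and falls, the 5 most counted, relatives ending in L with their partners, and 9 with roles in regulation; each other list gave up to 3 per direction. Some genes that meet these rules are not reported here. Alternatives were DESeq2 1.42.0 (size factors and test), limma-voom, library size scaling, TMM without ribosomal protein rows, other filters, summed rows, a replicate block and leaving out each library. A planned search of promoter sequences was not run, and sequences are not analysed here.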

Additional observations from a re-analysis of the deposited data

How the results depend on the processing

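With 19 members higher and 25 lower as the starting point, scaling, filter, test and row choices gave 18 to 21 higher and 25 to 31 lower, with scaling by library size alone at 18 and 31. That scaling moved the median of all tested genes to -0.06. Leaving out 1 library at a time gave 18 to 21 higher and 22 to 27 lower. The replicate numbers did not pair the libraries, since same-numbered libraries deviated with correlations of -0.12, 0.17 and -0.04, and a replicate block gave 20 higher and 26 lower. With calls limited to at least 1.5-fold, 0 were higher and 6 lower. Without chromosomes 14 and 18, a choice made after seeing the data, 12 were higher and 20 lower. The other translation lists, with 168 higher and 68 lower, ranged from 156 to 172 higher and 59 to 73 lower over all settings run on them.

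Over 30 named members and 15 settings, 438 of 450 values kept their direction and side of the threshold, for 26 genes in all of them. RPS27A changed sign under library size scaling (-0.039), and leaving out 1 library at a time gave it -0.055 (without the third wild-type library) to 0.049. RPS6 was not called without the first wild-type library (-0.09, edgeR adjusted p = 0.0642). RPL11 was called lower in 6 settings and RPSA in 3. Set against the chromosome median, RPL37 (-0.19), RPL13A (-0.078) and RPL18 (-0.066) turned negative, and RPS20 (0.052), RPS24 (0.046) and RPS27 (0.051) turned positive. The cause was not tested. Depth was even across libraries.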
